A study of Mus musculus with 62 samples.

Results

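The H3K9me3 sites that differed between Daxx-KO and WT haematopoietic stem and progenitor cells (HSPCs) at 8 weeks post induction (w.p.i.) are described here. They were all sites on the 19 autosomes that the authors listed as changed between 3 Daxx-KO and 3 WT libraries, 65255 of 69846 listed sites. Of the 62 libraries in the series, 6 entered this comparison. H3K9me3 was mapped by CUT&Tag, in which an antibody directs a pAG-Tn5 transposase to cut DNA next to the mark. The cells came from the bone marrow of C57BL/6 mice and were enriched on magnetic columns for c-Kit after depletion of lineage-marked cells. WT cells came from Daxx +/+ Cre +/- mice and Daxx-KO cells from Daxx F/F Cre +/- mice, so both groups carried the Mx1Cre transgene. Mx1Cre is driven by an interferon-inducible promoter and was switched on by injecting pI:pC, a double-stranded RNA mimic, into adult mice of both groups. The interferon response is not restricted to blood cells, and the ages of these mice are not given in the labels. The floxed Daxx line was made in C57BL/6N mice and the Cre line in C57BL/6J mice, and what each group kept of either substrain is not given in the sources used here.

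H3K9me3 is the trimethylation of lysine 9 of histone H3, written by enzymes such as Setdb1 and Suv39h1/2 and bound by HP1 proteins. It keeps transposable elements, satellite repeats and clusters of zinc-finger and receptor genes silent. Daxx is a chaperone of the histone variant H3.3 that works with the remodeller Atrx and is recruited to such silent repeats. Endogenous retroviruses, among them the intracisternal A particles (IAPs), are known targets of this silencing. Their reverse transcription starts on a cellular tRNA, which pairs with a primer-binding site behind the left long terminal repeat, and IAPs use a phenylalanine tRNA.

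A site was called gained where all 3 Daxx-KO libraries lay above all 3 WT libraries, and lost where all 3 lay below. Values are normalized counts, that is the reads of a library in the site divided by the constant deposited for that library. Library values are given in the order of replicates 1, 2 and 3. By this rule 37575 sites (57.6%) were gained, 20527 (31.5%) were lost and 7153 (10.96%) had overlapping groups. Every listed site had passed the authors' own test of the same libraries, so no test was run on them, and these shares are also the background of each count below. An exact permutation test of 3 against 3 libraries cannot go below p = 0.1 at a site, and one of 2 against 2 cannot go below 0.333. Nothing in the labels says whether replicates were separate mice or pools. In bulk chromatin, a change in the mix of cells and a change per cell cannot be told apart. The HSPC label could not be checked, since only changed H3K9me3 sites were listed and no levels of marker genes.

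Gained and lost sites differed in the sequences they held. To show them, the 30-base words most over-represented in one direction relative to the other were taken from the mm10 genome (GRCm38.p6, RefSeq) at the listed sites, 5 per direction, so that the direction of a word at 8 w.p.i. was fixed by its choice. Each word is printed as read in the site with the largest gap between the groups that holds it, with CpG in capitals. The first 5 were chosen for gained sites.

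A: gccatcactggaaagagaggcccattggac

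B: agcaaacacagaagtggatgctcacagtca

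C: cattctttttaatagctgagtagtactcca

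D: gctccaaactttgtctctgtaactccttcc

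E: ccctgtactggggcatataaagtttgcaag

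The other 5 were chosen for lost sites.

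F: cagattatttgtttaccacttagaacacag

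G: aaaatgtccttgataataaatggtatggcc

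H: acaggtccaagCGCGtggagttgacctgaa

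I: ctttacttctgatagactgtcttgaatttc

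J: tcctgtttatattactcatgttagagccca

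Word A was read at chr6:129203035-129203064 near Clec2d, D at chr9:124256133-124256162 near 2010315B03Rik, F at chr3:40860724-40860753 near Abhd18 and H at chr3:35873651-35873680 near Atp11b. Words A to E are repeated 18082 to 26905 times on the autosomes and words F to J 1366 to 4623 times. A repeat-family annotation was not used here, so no family is named. How reads that match many copies were placed is not given in the sources used here, and sites that hold the same word share sequence. Some words also lay in the same sites (424 for A and B, 354 for C and D, 144 for F and H). Counts of different words are therefore not independent.

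Word F was held by 574 lost and 74 gained sites, word G by 523 and 2, word H by 371 and 5, word I by 286 and 16, and word J by 225 and 0. Together they were in 1493 lost sites, 7.27% of all lost sites, and in 94 gained sites, 0.2502% of all gained sites. The words chosen for gained sites were less one-sided. Word A was in 711 gained and 234 lost sites and word B in 758 and 274, and the 5 together were in 5.50% of gained and 4.01% of lost sites. At every listed site that holds word G, summed, the Daxx-KO libraries had 22072, 20626 and 20102 normalized counts and the WT libraries 46239, 51961 and 46239. For word A the sums were 18952, 19981 and 27509 against 10361, 12612 and 11905. The libraries of a group lay close together at word G, while Daxx-KO replicate 3 stood above replicates 1 and 2 at word A.

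The level of the mark differed between the words. Lost sites with word G had a median WT mean of 75.6 and a median Daxx-KO mean of 35.4, and those with word F had 44.9 and 16.3. Lost sites with word A had a median WT mean of 16.7 and a median Daxx-KO mean of 3.32, and gained sites with word A had 4.73 and 18.9. Among lost sites, those with words F and G thus had the higher medians in both groups.

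Primer-binding sites were searched without using the direction of the sites: 18 bases complementary to the 3′ end of a tRNA, with TGG in capitals where they pair with the CCA end added to every tRNA. Of the different 3′ ends of 386 RefSeq tRNA genes, 4 were found in at least 20 listed sites.

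tRNA-Phe, n-TFgaa3: TGGtgccgaaacccggga

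tRNA-Ile, n-TIaat5: TGGtggcccgtacgggga

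tRNA-Phe, n-TFgaa2: TGGtgctgaaacccggga

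tRNA-Leu, n-TLtaa3: TGGtaccaggagtggggt

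The first tRNA-Phe primer-binding site lay in 164 lost, 11 gained and 7 overlapping sites, so 93.7% of its separated sites were lost. The tRNA-Ile site lay in 75 lost and 8 gained sites, and the second tRNA-Phe site in 35 and 4. The tRNA-Leu site lay in 9 lost and 19 gained sites. That was 67.9% gained, close to the 64.7% of all separated sites at 8 w.p.i. Summed over the sites with the first tRNA-Phe primer, the Daxx-KO libraries had 4732, 4405 and 3583 normalized counts and the WT libraries 11327, 12034 and 11094. The ratio between the sums of Daxx-KO and WT was 0.369. Most of these sites were called lost from the same libraries, so the distance between the sums follows from that call and describes these sites only. Words F to J and the tRNA-Phe and tRNA-Ile primers together marked 1646 lost sites, 8.02% of the lost sites, against 111 gained sites or 0.295%.

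For each of the first 2 primers, a lost site chosen for its large gap is shown with 60 bases to either side and the primer-binding site in capitals. Other lost sites with these primers were not all compared, so neither example is given as the largest gap. The tRNA-Phe primer is at chr14:52613549-52613686 on the minus strand, 117 kb from the start of the olfactory receptor gene Olfr1507 in an intergenic site of 5800 bases that also holds word I.

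Phe: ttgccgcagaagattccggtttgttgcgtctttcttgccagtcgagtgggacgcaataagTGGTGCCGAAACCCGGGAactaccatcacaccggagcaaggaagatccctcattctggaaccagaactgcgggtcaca

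That site had 75.9, 46.9 and 18.7 normalized counts in Daxx-KO against 437, 461 and 520 in the WT libraries. The tRNA-Ile primer is at chr12:20998023-20998160 on the minus strand, in an intron of Asap2.

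Ile: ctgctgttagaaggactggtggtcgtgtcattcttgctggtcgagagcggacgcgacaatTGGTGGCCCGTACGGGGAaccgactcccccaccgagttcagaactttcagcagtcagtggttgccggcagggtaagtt

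Its site had 45.2, 59.8 and 50.8 normalized counts in Daxx-KO against 263, 168 and 265 in WT libraries. In both examples all WT libraries were above all Daxx-KO libraries, which the choice of a lost site with a large gap had fixed.

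The other H3K9me3 libraries, 2 per group at 3 and at 24 w.p.i., came from other mice and took no part in the choice of the words. Of the listed autosomal sites, 78.6% were gained and 21% lost at 3 w.p.i., and 46.9% were gained and 50.3% lost at 24 w.p.i. Word F was in 693 lost and 23 gained sites at 3 w.p.i. and in 812 and 103 at 24 w.p.i., word G in 213 and 7 and then 472 and 6, and word H in 254 and 4 and then 483 and 5. Word J was in 34 lost and 14 gained sites at 3 w.p.i. and in 339 and 0 at 24 w.p.i. The first tRNA-Phe primer was in 153 lost and 6 gained sites at 3 w.p.i. and in 243 and 27 at 24 w.p.i. Sites with words F to I and with the tRNA-Phe and tRNA-Ile primers were thus mostly lost at all 3 times, also where most of the table was gained.

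Words A to E did not keep one direction. Word A was in 579 gained and 86 lost sites at 3 w.p.i. but in 328 gained and 832 lost sites at 24 w.p.i., and words B to E turned in the same way. The tRNA-Leu primer was in 31 gained and 7 lost sites at 3 w.p.i. and in 28 and 54 at 24 w.p.i.

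**Figure D1:**
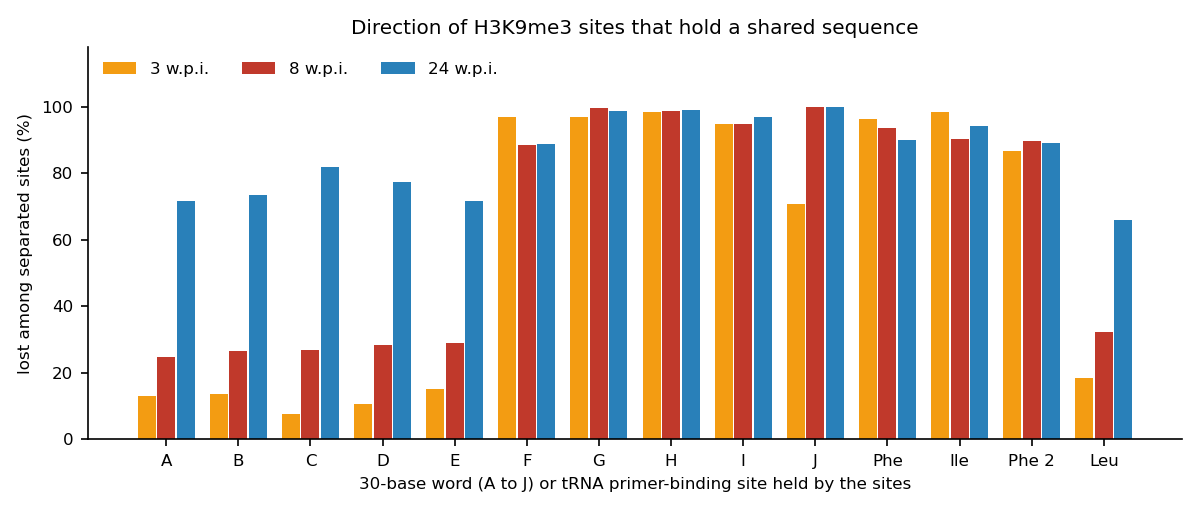
The bars give the percentage of lost sites among the gained and lost H3K9me3 sites that hold a shared sequence, at 3, 8 and 24 w.p.i.; words A to J and the tRNA primer-binding sites (Phe, Ile, the second Phe, Leu) are on the horizontal axis. Words F to I and both Phe and the Ile primers are near the top at all 3 times, while words A to E rise from mostly gained at 3 w.p.i. to mostly lost at 24 w.p.i., and the 8-week bars of A to J are fixed by how the words were chosen.

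Levels of the variant histone itself were listed for other libraries. In the H3.3 table at 3 w.p.i., where 57.7% of the listed sites were gained and 40.7% lost in Daxx-KO cells, word F was in 501 gained and 10 lost sites and word H in 150 and 0. The first tRNA-Phe primer was in 45 gained and 2 lost H3.3 sites. The same letters were in 232 gained and 153 lost H3.3 sites for word F at 24 w.p.i., where 51.3% of listed sites were gained and 47% lost. Words chosen for H3K9me3 gains were also mostly in gained H3.3 sites at 3 w.p.i. Word A had 171 gained and 12 lost, word B 132 and 25 and word E 148 and 50. Word C had 38 and 20 and word D 74 and 41, closer to the shares of all listed H3.3 sites. At 24 w.p.i. word A was in 684 gained and 389 lost H3.3 sites. Of the remaining sequences at 3 w.p.i., word G was in 28 gained and 1 lost H3.3 sites, word I in 14 and 0, word J in 8 and 0 and the tRNA-Ile primer in 14 and 3. More gained than lost H3.3 sites at 3 w.p.i. was thus found for words of both kinds, and for the listed H3.3 sites as a whole. Words F to J were more one-sided there than words A to E. Histone H3K27ac, an acetylation of active promoters and enhancers, was listed at few of these sequences. Of the listed H3K27ac sites 39.2% were gained and 58.4% lost at 3 w.p.i., and 41.3% and 56% at 24 w.p.i. Word F was in 39 gained and 27 lost H3K27ac sites at 3 w.p.i. and in 158 and 45 at 24 w.p.i. Word J was in 65 and 5 at 24 w.p.i. Word A, chosen for gains, was in 107 and 82 at 3 w.p.i. and in 99 and 149 at 24 w.p.i.

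Gained and lost sites were of alike size. Both had a median length of 750 bases, but the longest gained site spanned 8800 bases and the longest lost site 24950. Gained sites covered 32.2 Mb and lost sites 17.1 Mb, and all listed sites together 2.28% of the autosomes. At gained sites the median of the group means was 18.2 normalized counts in Daxx-KO against 3.77 in WT cells, and at lost sites 3.04 and 17.04. Where the lower group was above 0, the median difference was 4.56-fold at gained and 5.05-fold at lost sites. The lower group had no read in any library at 1143 gained and 1215 lost sites. A difference of at least 8-fold was found at 19.6% of gained and 30.5% of lost sites.

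Most sites rested on few reads. The median read number at gained sites was 16, 17 and 16 in Daxx-KO against 4 in each WT library, and at lost sites it was 17, 25 and 13 in the WT and 4, 3 and 2 in the Daxx-KO libraries. The libraries held 841935 to 1411369 reads in listed sites, with WT replicate 3 the shallowest. Over all autosomal sites the normalized counts summed to 1172940, 1234050 and 1549740 in Daxx-KO and to 883069, 1051450 and 986270 in WT libraries. Daxx-KO replicate 3 thus had the highest sum, and its median at gained sites was 21.4 against 14.5 and 15.6 in the other Daxx-KO libraries. Its part in the gained sites was not tested, and leaving out any library can only add separated sites; without it 38303 were gained and 21038 lost. The least separated sites differed by 0.01 normalized counts, a gained site near Ipo11 with 42.5, 55.2 and 16.04 against 15.8, 16.03 and 7.49 and a lost site near Npbwr1. The overlapping site with the smallest overlap, near Cdh8, had its lowest Daxx-KO and highest WT library at the same 10.1 counts.

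Repeat content separated the directions. The repeat-masked share of a site had a median of 29.8% in gained sites (quartiles 13.4% and 63.7%). In lost sites the median was 47.7% (quartiles 20% and 91.3%). Of all autosomal bases 33.5% are masked, a pooled share that cannot be set against a median over sites. Fully masked sites made up 7.02% of gained and 14.8% of lost sites. Among gained and lost sites, the share that was gained fell from 74.5% (95% Wilson interval 71.8 to 77.0) at sites with no masked base to 46.5% (45.2 to 47.8) at fully masked sites. These intervals cover counting error only, and sites are not replicates. CpG content separated the directions within repeats: among sites masked over at least 80% of their length, 58.1% were gained at up to 0.5 CpG per 100 bases and 21.7% above 3. At sites masked over less than 20%, the gained share was 64.3% at up to 0.5 CpG, 82.7% between 1 and 2 and 46.7% above 3 per 100 bases, where 182 sites were counted. Of the bins by repeat and CpG content, CpG-rich repeats had the lowest shares of gains.

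**Figure D2:**
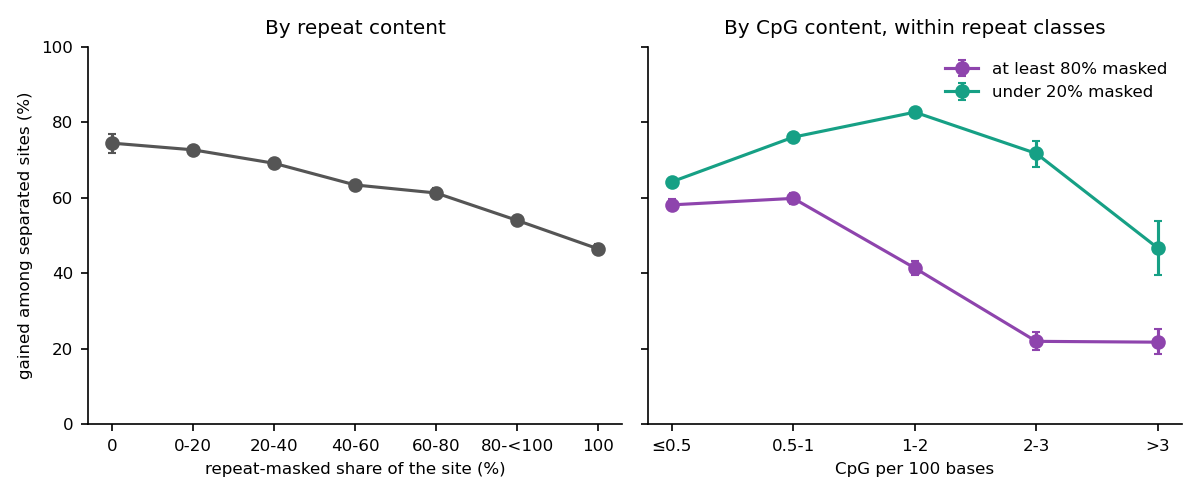
The vertical axes give the percentage of gained sites among gained and lost autosomal sites, with 95% Wilson intervals for counting error. On the left it falls from 74.5% to 46.5% as the repeat-masked share of a site rises, and on the right it is lowest for repeat-rich sites with more than 2 CpG per 100 bases.

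Few sites were near promoters. A gene start lay within 1 kb of 4.51% of gained (4.30 to 4.72) and 5.13% of lost sites (4.84 to 5.45). Of single autosomal bases 6.11% lie that close to a start. A site was counted by its nearest base, so that share of bases is no background for the shares of sites. Introns held 28.8% of gained and 25.6% of lost sites and 42.2% of autosomal bases, while 65.5% and 67.7% of sites and 52.8% of bases were intergenic. Both directions were thus spread over intergenic sequence more than the genome is, although a site with any base in a gene was not counted as intergenic. Short motifs were searched on both strands in the central 750 bases of sites at least that long. The PU box GAGGAA, the core of sequences bound by the myeloid factor PU.1, was in 55.6% of gained and 53.9% of lost sites and in 52.6% of all autosomal windows of that length. The telomere repeat TTAGGG, with 2 units in a row, was in 0.0880% of gained, 0.0195% of lost sites and 0.0373% of windows, 19 and 2 sites.

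Chromosomes differed in their share of gains. On chromosome 19, 617 sites were gained and 144 lost, so that 81.1% of separated sites were gained. Chromosome 14, with 1578 gained and 1108 lost sites, had the lowest share, 58.7%. Chromosome 17 held the most gained sites per megabase (19.3) and chromosome 7 the most lost sites (11.8). In the first 3 Mb of sequence of the chromosomes, next to the centromeres, 382 sites were gained and 551 lost, and in the last 3 Mb, next to the telomeres, 896 were gained and 428 lost.

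Gained sites, which were also the more numerous, lay in long runs. When sites of one direction within 10 kb were joined, 24.6% of gained and 9.66% of lost sites were in runs of at least 5 sites. Of 362 blocks of 1 Mb with at least 50 separated sites, 72 had at least 90% gains and 0 had at least 90% losses. The longest gained run had 149 sites and spanned 506 kb of Cdh13, a cadherin gene (chr8:117985601-118491300). Its sites summed to 5916, 7392 and 6247 normalized counts in Daxx-KO against 2203, 1615 and 2573 in WT libraries, 3.06-fold higher in Daxx-KO cells. The run near Vrk1, a kinase gene, had 89 sites, and the one over Csmd2 and Hmgb4 had 84. Over the Csmd2 run the Daxx-KO libraries summed to 4984, 6119 and 4012 and the WT libraries to 1422, 696 and 1348. A run joins sites of one direction, so its sums must separate the groups and the ratios describe these sites only. At 3 w.p.i. 34 sites were listed within the Csmd2 run and all 34 were gained, and at 24 w.p.i. 111 were gained and 13 lost. Within the Cdh13 run 25 were gained and 10 lost at 3 w.p.i., and 117 were gained and 49 lost at 24 w.p.i. The run near Vrk1 had 9 gained and 6 lost sites at 3 w.p.i., then 82 and 16 at 24 w.p.i. The one near 3110018I06Rik had 13 and 9, then 48 and 40 at 24 w.p.i. At 3 w.p.i. 78.9% of all separated sites of the table were gained, so that of these 4 runs Csmd2 alone was above it. At 24 w.p.i. 48.2% of all separated sites were gained, and all 4 runs were above that share.

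The longest lost runs were shorter. A run of 29 lost sites in Cpq, a carboxypeptidase gene (chr15:33104401-33205050), summed to 679, 720 and 738 in Daxx-KO against 2097, 2324 and 2119 in WT libraries. Runs of 29 sites near Zfp986 and 23 in Zfp991 lay in clusters of zinc-finger genes on chromosome 4. The Zfp986 run summed to 2841, 3126 and 3720 in Daxx-KO against 5635, 6206 and 4985 in WT libraries, and 24 of 24 sites listed there at 24 w.p.i. were lost. The run of 22 lost sites in Cdyl2, which encodes a chromodomain protein, summed to 672, 548 and 647 against 5288, 4588 and 3901. All 22 sites listed there at 3 w.p.i. and all 31 at 24 w.p.i. were lost. The ratio of the Daxx-KO to the WT sum over these lost sites was 0.136 in the Cdyl2 run and 0.576 in the Zfp986 run, with overlapping and unlisted stretches left out.

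**Figure D3:**
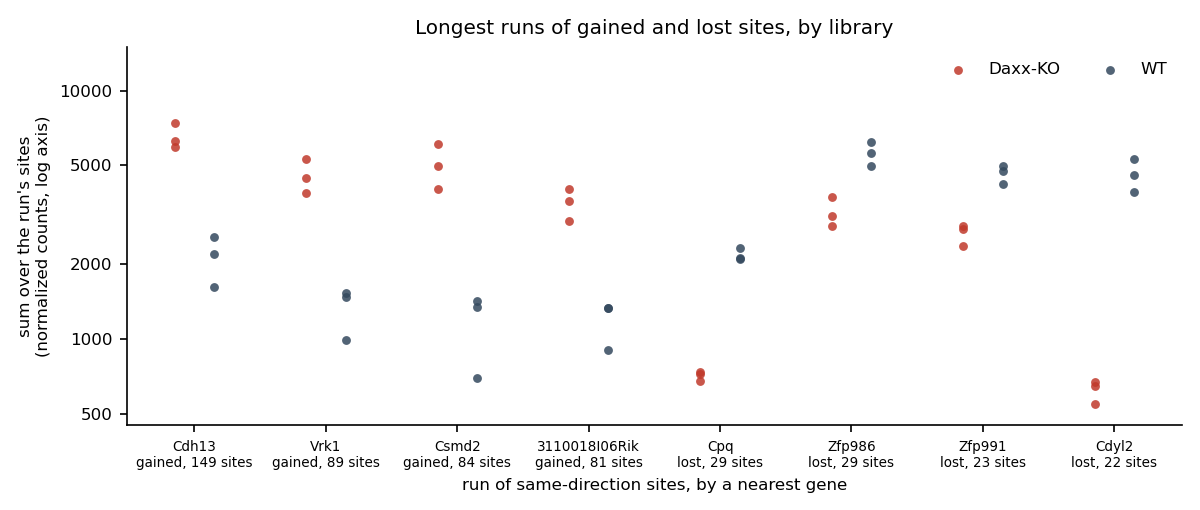
Each point is a library, placed on a log axis by the sum of its normalized counts over the sites of a run; the 4 longest gained and the 4 longest lost runs are named by a nearest gene. The Daxx-KO and WT points cannot overlap, since the rule for each site fixes it, and the Cdyl2 run has the widest distance between groups.

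Single sites with the largest gap between the groups were named per direction. The lost site with the largest gap spanned 18050 bases that overlap exons of Ttn, the giant muscle protein titin, with Plekha3 as the nearest gene start (chr2:76709451-76727500). It had 237, 176 and 182 normalized counts in Daxx-KO against 1593, 1477 and 1519 in the WT libraries, a 7.72-fold loss with the libraries of each group close together. At 3 w.p.i. the overlapping site had 69.8 and 73.3 against 1493 and 1722, and at 24 w.p.i. 225 and 351 against 1565 and 1351.

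The widest site of all lay in an intron of Cdyl2 (chr8:116631151-116656100). Its counts were 44.3, 12.9 and 66.8 in Daxx-KO against 1690, 1248 and 1094 in WT libraries, 32.5-fold lower in Daxx-KO cells. At 3 w.p.i. the values were 20.9 and 26.7 against 1076 and 1081. A second Cdyl2 site (chr8:116663401-116674950) had 74.1, 44.1 and 45.5 against 990, 870 and 769. At both sites the groups stood far apart, with 74.1 in the highest Daxx-KO and 769 in the lowest WT library of the second site.

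In an intron of Smyd3, a lysine methyltransferase gene, a site of 8100 bases (chr1:179431251-179439350) had 36.2, 12.9 and 56.2 against 940, 774 and 802 normalized counts, 23.9-fold lower. In an intron of Arl15, a small GTPase gene, a site of 14400 bases (chr13:113907101-113921500) had 23.5, 20.2 and 50.8 against 819, 994 and 699, 26.6-fold lower. Dctd, the gene of deoxycytidylate deaminase, held a site of 13100 bases (chr8:48128651-48141750) with 25.3, 47.8 and 64.2 against 740, 646 and 583. Over these 3 sites the highest Daxx-KO value was 64.2 and the lowest WT value 583. All 3 were lost at 3 and at 24 w.p.i. as well, with 880 and 837 WT against 32.6 and 20.0 Daxx-KO counts at Smyd3 at 3 w.p.i.

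Other lost sites kept more of the mark. Near Ly6c2, which encodes a surface protein of myeloid cells, a site of 2500 bases (chr15:75085051-75087550) had 105, 232 and 310 in Daxx-KO against 1158, 1262 and 2188 in WT libraries. Per kilobase it was the most strongly marked of the 8 lost sites in WT cells, with 614 normalized counts per kb against 104 at Smyd3, as a mean of 3 libraries. Near Zfp981, a zinc-finger gene, a site (chr4:146475551-146479850) had 807, 910 and 1037 against 1594, 1711 and 1566, which was 1.77-fold lower. Near BC005561 a site had 339, 317 and 301 against 840, 803 and 877, 2.63-fold lower. At Zfp981 and BC005561 the gaps of 529 and 464 counts came from high counts in both groups rather than from a large ratio.

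The gained site with the largest gap lay 54.7 kb from the start of 2010315B03Rik, near the end of chromosome 9 (chr9:124255801-124258550), and holds word D. It had 1630, 2190 and 1505 normalized counts in Daxx-KO against 224, 241 and 337 in WT libraries, 6.63-fold higher. It was gained at 3 w.p.i., with 1263 and 1253 against 285 and 426, and at 24 w.p.i., with 2121 and 1741 against 1021 and 1161.

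The widest gained site (chr17:12264601-12273400) overlapped an exon of Map3k4, a gene of MAP kinase signalling, with 574, 471 and 396 in Daxx-KO against 12.6, 15.2 and 45.0 in WT libraries, 19.8-fold higher. A second site in the gene, of 7850 bases, had 470, 457 and 286 against 52.9, 33.7 and 62.4. In these sites the WT libraries were at 2.76 and 6.33 counts per kb as group means, against 54.6 and 51.5 in Daxx-KO libraries. A gained site of 7250 bases in an intron of Gm20388, with the glycosyltransferase gene Galnt2 as the nearest protein-coding start, had 570, 478 and 283 against 44.2, 8.44 and 52.5. Each of these 3 sites was also gained at 3 and at 24 w.p.i.

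The remaining gained sites differed less or between libraries. Near Bmpr1b, a BMP receptor gene, a site had 779, 1052 and 1127 in Daxx-KO against 398, 354 and 355 in WT libraries, 2.67-fold higher. Near Tmem125 a GC-rich site (58.3%) had 1568, 2516 and 652 against 245, 369 and 237, with Daxx-KO replicate 3 far below replicates 1 and 2. A site in Lyst, a gene of lysosome trafficking, had 1137, 1025 and 1001.3 against 558, 375 and 664. In Tmem267 a site had 730, 799 and 672 against 394, 223 and 370, and near Prox1 one had 1652, 1870 and 1890 against 1248, 1047 and 1007. The groups at Prox1, Lyst and Tmem267 overlapped when reads were scaled by the mean reads per window of each library instead of the authors' constants. Near Galr1 on chromosome 18 a site of 8150 bases had 534, 740 and 356 against 146, 77.6 and 98.7.

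**Figure D4:**
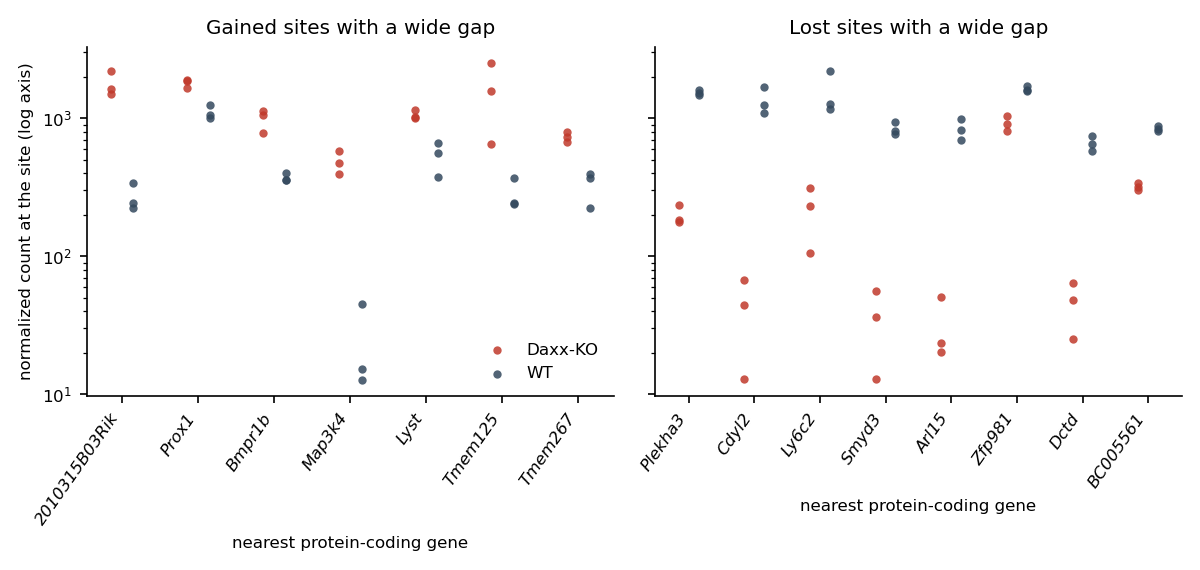
Each point is a library, with its normalized count at a site on a log axis; the reported gained sites and the 8 lost sites with the largest gap are named by the nearest protein-coding gene start. Red Daxx-KO and dark blue WT points do not overlap at any site, as the rule requires (at Prox1, Lyst and Tmem267 not under scaling by mean reads per window), and Cdyl2, Smyd3, Arl15 and Dctd among the lost and Map3k4 among the gained sites have the widest spacing.

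Wide sites with a large ratio were few and were picked out after their values were seen. Of 107 lost sites of at least 3000 bases, 21 were at least 10-fold lower in Daxx-KO cells, and they lay at 13 nearest genes, among them Cdyl2, Smyd3, Arl15, Camkmt, Nrros, Sh3rf1 and Zfhx3. The site with the largest ratio, in Cdyl2, had 1.81, 3.68 and 0 against 436, 293 and 229. All 21 overlapped a site lost at 3 w.p.i., and 19 overlapped one lost at 24 w.p.i. and 2 none. Of 92 gained sites of that width 11 were at least 10-fold higher, and 8 of them lay at chr17:12264601-14400150, near Map3k4, Unc93a, Tcp10c, Tcte2, Dact2 and Smoc2. The site near Tcte2 had 214, 200 and 155 against 6.32, 3.37 and 7.49. Of the 11, 10 were gained at 3 w.p.i. and 1 was not listed, and all 11 were gained at 24 w.p.i. The Daxx gene is on chromosome 17 too. The floxed allele was made in C57BL/6N mice, so in these groups the loss of Daxx and C57BL/6N sequence linked to the allele cannot be told apart on this chromosome. Whether differences between the C57BL/6N and C57BL/6J substrains take part in the other wide sites, such as those in Cdyl2, Smyd3 and Arl15, was not tested. These wide sites were little masked, with medians of 25.1% for lost and 23.6% for gained sites.

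Libraries of mice with floxed Pu.1 (gene Spi1) as well as floxed Daxx and the same Cre (DKO) were listed against the same Daxx-KO and WT libraries, in tables with other constants. They share libraries with the main comparison, so the values are set side by side only. At Ttn the overlapping site of the table against WT had 32.3, 34.5 and 36.8 in the DKO and 419, 311 and 390 in the WT libraries. At the widest Cdyl2 site DKO replicates had 8.62, 0 and 23.8 against 475, 315 and 286 in WT. At Smyd3 they had 43.1, 55.3 and 28.4 against 535, 452 and 460. DKO libraries were low against WT at these 3 lost sites. At Ly6c2, in the table against Daxx-KO, DKO libraries were the higher ones, with 525, 333 and 612 against 57.6, 126 and 178. At Map3k4 the table against Daxx-KO had 0, 26.2 and 32.1 in the DKO and 275, 237 and 196 in the Daxx-KO libraries, so there the DKO libraries were the lower ones. The gained site near 2010315B03Rik had 246, 328 and 258 in the DKO against 52.6, 66.5 and 94.5 in the WT libraries, and 244, 314 and 222 in the DKO against 400, 539 and 406 in the Daxx-KO libraries. Near Tmem125 the DKO libraries had 670, 515 and 252 and the WT libraries 104, 181 and 100.98. At Galnt2 they had 30.2, 104 and 48.3 against 12.6, 4.93 and 17.9 in WT. DKO libraries thus lay above WT at these 3 gained sites and did not follow one pattern over the named sites.

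At all sites that overlapped a listed site of another table, direction was compared with libraries from other mice. Of 8-week gains that overlapped a separated H3K9me3 site at 3 w.p.i., 88.6% (87.7 to 89.4) were gained there, against 78.9% of all separated sites of that table. Of 8-week losses, 61.6% (60.005 to 63.127) were lost there, against 21.1% of the table. At 24 w.p.i. 50.4% of the overlapping gains were gained again, against 48.2% of the table, and 79.6% of the losses were lost again, against 51.8%. Losses therefore kept their direction at both times by a wide margin over the table, while gains did so at 3 w.p.i. by a smaller one and at 24 w.p.i. were close to the table. Overlap was partial, since 14.3% of gains and 18.2% of losses overlapped a listed site at 3 w.p.i. and 27.3% and 28.2% at 24 w.p.i. In all, 988 sites were gained and 1249 lost at 3, 8 and 24 w.p.i., and ranked by the smallest of the 3 gaps these were led by the lost sites at Ttn, Ly6c2, Smyd3 and Arl15, the second Cdyl2 site and the gained site near 2010315B03Rik.

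Other marks were compared in the same way. In the H3.3 table at 3 w.p.i., 66.3% of the overlapping lost H3K9me3 sites and 45.5% of the gained ones had gained H3.3, against 58.7% of that table. At 24 w.p.i. the shares were 54.0% and 52.2% against 52.2%. H3K27ac was gained at 62.0% of the overlapping losses and 48.9% of the gains at 3 w.p.i., where 39.2% of listed sites were gained and 58.4% lost and 40.2% of separated sites were gained. At 24 w.p.i. the shares were 55.4% and 49.7% in a table with 41.3% gained and 56% lost sites, where 42.5% of separated sites were gained. H3K27me3, the mark of Polycomb silencing, was gained at 40.8% of the overlapping losses and 30.4% of the gains at 24 w.p.i., where 40.8% of listed sites were gained and 56.8% lost. Lost H3K9me3 sites thus had a higher share of H3.3 and H3K27ac gains than gained ones at 3 w.p.i. For H3K27ac, sites of both directions were above the share of all separated sites at 3 and at 24 w.p.i. Gained H3K9me3 sites had the lower share of H3K27me3 gains at 24 w.p.i. These overlaps cover few sites: 1490 losses overlapped a listed H3.3 site and 586 an H3K27ac site at 3 w.p.i.

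**Figure D5:**
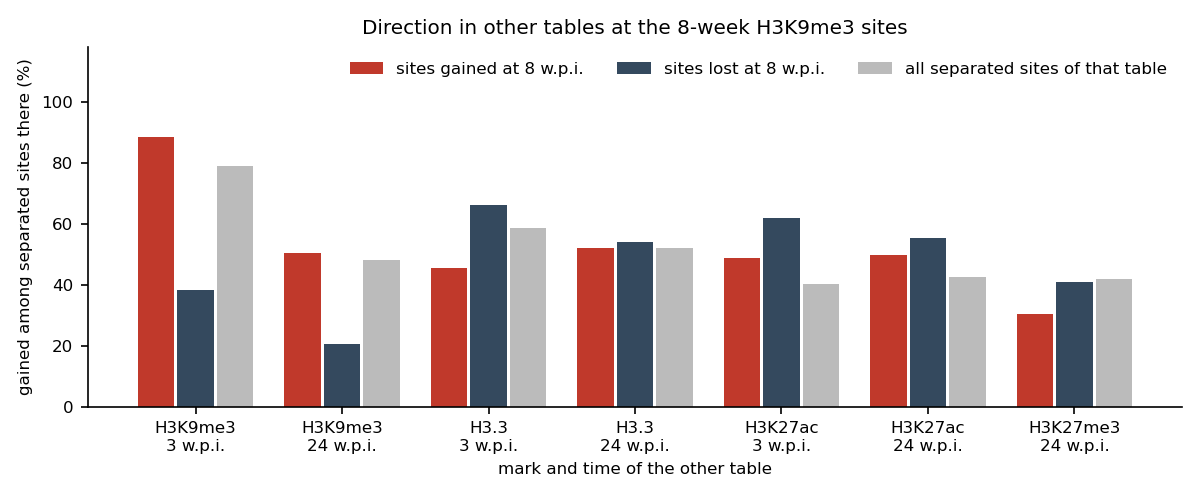
Bars give the percentage of gained sites among gained and lost sites of another table that overlap the 8-week gains (red) or losses (dark blue), beside all separated sites of that table (grey); the horizontal axis names the mark and time. The dark blue bars for H3K9me3 (38.4% and 20.4%) lie below the grey ones (78.9% and 48.2%), and those for H3.3 and H3K27ac at 3 w.p.i. (66.3% and 62.0%) lie above them.

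Genes of fixed lists were searched for a gained or lost site in the gene or within 10 kb. Of 20780 autosomal protein-coding genes 17.6% had a gained site and 14.4% a lost site by this rule. Fbp1 and Fbp2, the fructose-1,6-bisphosphatase genes of gluconeogenesis, are neighbours and shared the same 2 gained sites, with no lost site within 10 kb. The site with the largest gap there, in an exon of Fbp2 (chr13:62854151-62855700), had 44.3, 46.9 and 29.4 in Daxx-KO against 3.16, 5.06 and 2.50 in WT libraries, 11.3-fold higher. It overlapped a gained site of other borders at 3 w.p.i. (chr13:62855601-62857250), with 54.7 and 58.3 against 14.0 and 22.0. At 24 w.p.i. it overlapped a wider gained site (chr13:62853801-62858800), with 2345 and 1614 against 424 and 399. The Daxx-KO libraries were above the WT libraries at Fbp2 at all 3 times. A second Fbp2 site, in an intron, had 56.1, 46.9 and 16.04 against 9.48, 9.28 and 16.2, so that the groups overlapped by 0.2 counts. Within 50 kb of Fbp1 and Fbp2 there were 6 sites, 3 gained, 2 lost and 1 overlapping, and within 50 kb of Daxx or Spi1 there were 0.

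Genes of blood lineages had few sites. Of 25 myeloid genes, 3 had a gained site (Csf2ra, Fcgr3, Ly6g) and 0 a lost one. Fcgr3, an Fc receptor gene, had 11.8, 26.7 and 26.7 against 7.90, 8.44 and 1.25 normalized counts in an intron. Of 20 stem and early progenitor genes 1 had a gained site (Gata2) and 3 a lost one (Mecom, Kit, Cd34). In Mecom, which encodes the stem-cell factor Evi1, the site had 0, 0 and 0 in Daxx-KO against 6.32, 11.8 and 9.99 in WT libraries. In Kit, the receptor used to enrich these cells, it had 0, 1.84 and 0 against 3.95, 16.9 and 7.49. These sites rest on a few reads per library. Of 23 B-cell and lymphoid genes 1 had a gained site (Bach2) and 2 a lost one (Il7r, Notch1). The Il7r site, 29.4 kb from the gene start and 99.7% repeat-masked, had 66.9, 36.8 and 102 against 224, 191 and 196. It overlapped lost sites of other borders at 3 and 24 w.p.i. Shares of genes with sites were at or below the background in the myeloid and lymphoid lists, and the stem-cell list was close to it for losses, with 15% against 14.4%.

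Of 25 genes of the interferon response and RNA sensing, such as Irf7 and Mavs, 0 had a gained and 0 a lost site. Of 16 inflammatory cytokine genes 2 had a gained site (Il1b, Cxcl2), with 28.03, 11.04 and 24.1 against 7.90, 0 and 6.24 near Il1b. The lost sites near cytokine genes were 0. Of 27 autosomal genes of H3K9 methylation and repeat silencing, 3 had a gained site (Morc3, Hells, Atf7ip) and 3 a lost one (Atf7ip, Kdm4a, Kdm4c). Next to Kdm4a, an H3K9 demethylase gene, the lost site had 69.6, 79.1 and 61.5 against 129, 127 and 117. Imprinted loci, where H3K9me3 marks the silent parental allele, were the list with most sites. Of 39 such genes 16 had a gained site and 12 a lost one, 41.03% and 30.8%, and neighbouring genes share sites there (Peg3, Usp29 and Zim1; Kcnq1 and Kcnq1ot1; Snrpn and Snurf). A site in Kcnq1 had 144, 162 and 108 in Daxx-KO against 64.8, 36.3 and 63.7 in WT libraries, and one in Usp29 56.1, 43.2 and 48.1 against 16.6, 16.03 and 22.5. Next to Herc3 a lost site had 59.7, 77.3 and 50.8 against 152, 112 and 106. The imprinted genes thus carried sites of both directions, and the gain at Kcnq1 was also listed at 3 w.p.i.

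Gene families were counted by the nearest gene start of a site. Zfp zinc-finger genes, many of which encode KRAB proteins that bind retroelements, were nearest to 647 gained and 920 lost sites, 1.72% of gains and 4.48% of losses, while they make up 2.21% of genes. Lost sites near them had a median WT mean of 38.97 and a median Daxx-KO mean of 13.2. Vomeronasal receptors, 1.58% of genes, were nearest to 493 gained and 554 lost sites, 1.31% and 2.70%. Olfactory receptors, 5.42% of genes, had 792 and 432 sites, which made up 2.11% of gains and 2.10% of losses. Clustered protocadherins had 39 gained and 14 lost sites, cytochrome P450 genes 182 and 80, serpins 90 and 42 and defensins 45 and 44. Of all separated sites 64.7% were gained. The share was 64.7% for olfactory receptors, 69.5% for cytochrome P450 genes and 68.2% for serpins, close to that background. It was 73.6% for protocadherins, 50.6% for defensins, 47.1% for vomeronasal receptors and 41.3% for Zfp genes. Hox clusters and replication-dependent histone genes each had 0 gained and 1 lost site. Of the families with more than 1 site, Zfp and vomeronasal receptor genes had more losses than gains.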

How the data were processed

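CUT&Tag reads were processed by the authors with CASAVA 1.8.4, cutadapt 1.13, STAR 2.5.3 and bedtools, per the labels, on mm10. The read placement rules are not given in the sources used here. Per the file headers, diffReps 1.55.6 (negative binomial test, windows of 600 bases moved by 50, fragment 100, p-value cutoff 0.0001) listed changed sites. Deposited values are other than raw: each cell joins the normalized counts of a group's libraries, reads divided by a constant in the header. Times the constant, 100% of 419076 values were within 0.05 reads or 1% of a whole number. The authors' group means, fold changes and p-values stand in the same tables and were not used. Replicates 1, 2 and 3 of Daxx-KO and WT have 1.68, 1.35, 1.5, 1.11, 1.86 and 1.5 mean reads per window and constants of 1.11, 1.09, 0.75, 1.27, 1.19 and 0.8.

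Of the tables, 10 were used and 5 were not. Gained and lost sites were called by groups that do not overlap, with no test. Sites of different times or marks were matched where they shared at least 1 base, so their borders can differ. Genes were those of GENCODE M21 and tRNA genes those of RefSeq (GRCm38.p6). Named were, per direction, the 8 sites with the largest gap (1 per gene), the 4 widest and the 4 longest runs, sites within 50 kb of Fbp1, Fbp2, Daxx and Spi1, the site with the largest gap of up to 4 genes per list, 9 lists and 9 families, and 6 sites alike at 3 times. A named gained site and the list of erythroid and megakaryocyte genes are not reported here. Members and lists were chosen with earlier results of these data known. Words were passed over where they shared over 40% of their sites with one taken before. Wilson 95% intervals cover counting error only. Python 3.11.15 with numpy 2.4.6, pandas 2.3.3, pysam 0.24.0 and matplotlib 3.10.9 was used, and functions were tested on simulated data.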

Additional observations from a re-analysis of the deposited data

Results flagged for a closer look

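The following results turned between times or lie outside the autosomal comparison. Differences between times were not tested. The site near Tmem125, gained at 8 w.p.i., overlapped a site lost at 3 w.p.i., with a log2 ratio of Daxx-KO over WT of -0.53 there, from 260 and 273 against 463 and 306 normalized counts. The site in Tmem267, gained at 8 w.p.i., overlapped one with a log2 ratio of -1.90 at 3 w.p.i., from 410 and 435 against 1576 and 1585. Near Galr1 the log2 ratio at 3 w.p.i. was -2.19, from 4.65 and 3.33 against 18.4 and 18.0, in a site of other borders. At the site near Gm5141 (chr13:62815601-62816200), lost at 8 w.p.i., the log2 ratio at 24 w.p.i. was 1.53, and at the Notch1 site, lost at 8 w.p.i. with 0, 0.92 and 0 against 4.74, 8.44 and 7.49, it was 4.21, from 35.7 and 85.5 against 0 and 6.56.

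Chromosome X, left out above, had 2099 gained and 1972 lost sites, 51.6% gained. On chromosome Y 12 sites were gained and 47 lost. The listed Y sites summed to 1860, 1974 and 1489 normalized counts in Daxx-KO and 7519, 3260 and 2676 in WT libraries, with WT replicate 1 apart from the rest.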

How the results depend on the processing

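No paired analysis was possible because no result comes from a test and replicate numbers mark no shared animal, litter or day. With the higher group's mean at least 20 normalized counts, 16255 sites were gained and 8401 lost, and the median masked share was 30.8% and 63.8%. The share near a gene start was 9.76% of gained and 11.3% of lost sites within 3 kb and 2.36% and 2.63% within 250 bases. With means at least 2-fold apart the masked share of lost sites was 46.2%. Requiring an overlap of 50% of the shorter site, 65.8% of losses were lost at 3 w.p.i. and 51.5% of gains were gained at 24 w.p.i., and counting sites within 1 kb gave 53.7% and 47.5%. Scaling by mean reads per window, chosen after seeing the data, shifted the median log2 ratio of Daxx-KO over WT by -0.19 and gave 30984 gained and 20407 lost sites, 60.3% gained in place of 64.7%. It gave 4.28% of gained sites near a start, masked shares of 28.8% and 46.4%, and same-direction shares at 3 w.p.i. of 90.2% for gains and 59.0% for losses. It also lowered the gained sites with words F, G and H to 49, 1 and 1 and those with the first tRNA-Phe and the tRNA-Ile primer to 6 and 5. Prox1 and the gained sites at chr13:62819451-62820200 and chr13:62860551-62861150 no longer passed a gap of 1.5 times. The causes were not tested.

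Leaving out each library in turn gave 38303 to 39775 gained and 20653 to 21616 lost sites. Leaving out a library can only add separated sites and cannot turn one. Rescaling, the alternative that could turn a named site, turned none. Of the alternative values of these counts and shares, 78 stayed within their counting error or 1.5 times the main value and 18 did not. The depth of 4 reads or fewer in the lower group of a median site limits each single ratio.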
